A study of Mus musculus with 10 samples.

Results

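The large (60S) subunit of the cytosolic ribosome is the particle that joins amino acids into protein, and the 46 genes described here encode its proteins. They were taken by gene symbol from a table of 24544 gene rows, and all 46 had a row. Of these, 45 had enough counts to be tested, among 12203 tested genes; Rpl26 had 0 counts in all 10 libraries.

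The libraries were bulk RNA-seq of long-term hematopoietic stem cells, the bone marrow cells that can rebuild blood for life. All mice were Hoxb5-mCherry reporter animals of 2 to 3 months, in which a red fluorescent protein reports Hoxb5. Every cell sorted was negative for lineage markers, CD48, FLK2 and CD34 and positive for cKIT, SCA1, CD150 and Hoxb5. The groups differed in NEO1 (neogenin-1, a surface receptor), with 5 NEO1+ and 5 NEO1- libraries, each from 250 to 500 cells of 2 pooled mice. The comparison asked how the transcripts of stem cells with and without NEO1 on the surface differ. No other treatment or genotype was given, and the p-values measure the spread between such pools.

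Ribosomal protein genes are regulated as a group, and their mRNAs typically begin with a run of pyrimidines, the 5′ terminal oligopyrimidine (TOP) tract, through which mTOR and LARP1 adjust their translation. In blood-forming cells the dose of single ribosomal proteins matters: loss of 1 copy of several of these genes causes Diamond-Blackfan anemia, a failure of red cell production. Hematopoietic stem cells are known for a low and tightly held rate of protein synthesis.

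Stretches around the RefSeq transcription start of 8 members are printed to show the longest pyrimidine run near that start in genes described below. Each line gives 50 bases of build GRCm38.p6 from RefSeq, 5′ to 3′ on the gene's strand, with 25 bases on each side of the start. The capitals mark the longest unbroken run of C and T. The first 4 genes had a long run and the last 4 a short one.
Rpl7a, chr2:26910782-26910831, plus strand: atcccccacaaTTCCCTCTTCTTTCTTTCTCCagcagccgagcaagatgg
Rpl4, chr9:64173362-64173411, plus strand: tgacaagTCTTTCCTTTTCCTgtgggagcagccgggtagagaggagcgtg
Rplp2, chr7:141447626-141447675, plus strand: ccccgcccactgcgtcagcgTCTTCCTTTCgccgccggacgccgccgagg
Rpl22l1, chr3:28805483-28805532, plus strand: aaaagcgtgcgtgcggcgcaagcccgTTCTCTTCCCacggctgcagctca
Rpl9, chr5:65391407-65391456, minus strand: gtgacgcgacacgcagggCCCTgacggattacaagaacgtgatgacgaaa
Rpl22, chr4:152325701-152325750, plus strand: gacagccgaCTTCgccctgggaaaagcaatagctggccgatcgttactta
Rpl27, chr11:101442220-101442269, plus strand: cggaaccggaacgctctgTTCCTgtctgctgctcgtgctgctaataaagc
Rpl36a, chrX:134585629-134585678, plus strand: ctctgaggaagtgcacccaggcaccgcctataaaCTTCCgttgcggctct

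The run was 21 bases long in Rpl7a, 14 in Rpl4 and 10 in both Rplp2 and Rpl22l1, against 5 in Rpl27 and Rpl36a and 4 in Rpl9 and Rpl22. Of the long runs, those of Rpl7a and Rplp2 spanned the annotated start and that of Rpl22l1 began 1 base after it. The Rpl4 run began 18 bases before the start and ended before it, so by RefSeq it lies outside the mRNA. The GENCODE M21 annotation places some of these starts elsewhere. Its Rpl4 gene starts at chr9:64173375, inside the run, and its Rpl27 gene at chr11:101442298, past the end of the printed window. Which runs count as long or short near a start thus depends on the annotation. RefSeq windows were at hand for 35 of the 46 members. A run of 8 or more pyrimidines on the gene's strand lay within 25 bases of the start in 18 of the 35 (51.4%), against 19.7% of the windows of all 32851 genes. The letters CCGGAAG on either strand were found between 250 bases before and 50 after the start in 13 of the 35 (37.1%), against 8.86% of all windows; on the opposite strand they hold a short pyrimidine run. Among the 33 members with a window and a mean of at least 10 CPM, the run length had a Spearman correlation of 0.03 with the log2 fold change described next. These members were all measured in the same 10 libraries. A match is a description of letters near an annotated start, which need not be the start used in these cells.

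Of the 45 tested members, 44 had a log2 fold change below 0, that is a lower level in NEO1+ than in NEO1- cells, where 49.0% of all tested genes did. The median was -0.35 over the members and 0.01 over all tested genes. With total counts as the only scaling the all-gene median was 0.16 and the member median -0.20, and Rpl4, Rpl27 and Rpl29 then had values of 0.021, 0.050 and 0.010. Among the 43 members with a mean of at least 10 CPM (CPM is the count scaled to library size, here after TMM, a correction for library composition), the log2 fold changes ran from -0.61 in Rpl38 to -0.11 in Rpl27. Their SD over members was 0.12, so the members stood close together.

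By edgeR's quasi-likelihood test with Benjamini-Hochberg adjustment over all tested genes, 0 of the 45 members passed 0.05, as did 0% of all tested genes. The smallest adjusted p was 0.267, for Rpl7a and Rpl9. The same test had 34 members lower in NEO1+ and 0 higher with an unadjusted p below 0.05, where 3.49% of all tested genes were lower. With total counts as the only scaling there were 9 such members, among 102 such genes of the 12203. DESeq2 on the same counts called 6 members, all lower (Rpl7a, Rpl9, Rpl10, Rpl13a, Rpl23a and Rplp1), where it called 0.408% of genes lower; limma-voom called 0. In 5 members (Rpl7a, Rpl9, Rpl13a, Rpl23a and Rplp1) every NEO1+ library lay below every NEO1- library, which held for 1.13% of all tested genes (2.48% in either direction). With total counts as the only scaling, 0 members and 39 of the 12203 tested genes did so. In bulk libraries, fewer cells that hold a transcript and less of it per cell cannot be told apart.

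**Figure D1:**
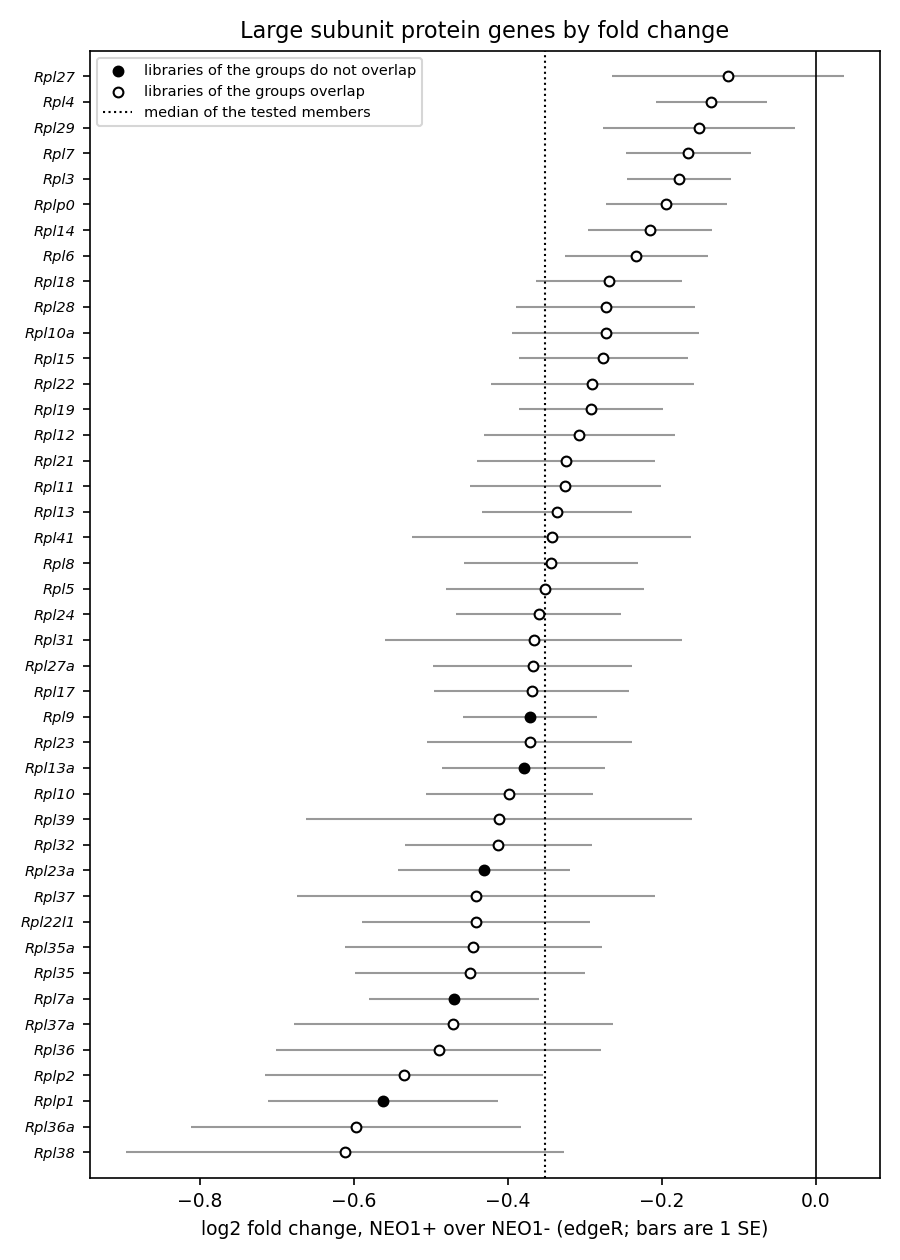
Log2 fold change (NEO1+ over NEO1-, x axis) of the 43 members with a mean of at least 10 CPM, with bars of 1 SE from edgeR; filled points mark the 5 members whose groups do not overlap. All 43 points lie left of 0, from -0.61 for Rpl38 to -0.11 for Rpl27, around the dotted median of -0.35.

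Rpl5 and Rpl11 encode the proteins that travel with 5S ribosomal RNA into the ribosome and, when unassembled, bind MDM2 and so stabilise p53. Rpl5 was at 210.3, 182, 164, 179 and 177 CPM in NEO1+ libraries 1 to 5 and at 245, 294, 198, 236 and 191 CPM in NEO1- libraries 1 to 5. Rpl11 was at 202, 213, 204, 195 and 189 CPM in NEO1+ and at 265, 326, 214, 245 and 208 CPM in NEO1- libraries. For both genes the groups overlapped through NEO1- library 5, and for Rpl5 also through library 3, whose value lay below NEO1+ library 1. The log2 fold changes were -0.35 (SE 0.13) for Rpl5 and -0.33 (SE 0.12) for Rpl11, with edgeR adjusted p values of 0.6 and 0.612.

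The stalk of the subunit, which recruits the translation factors that use GTP, is built from the products of Rplp0, Rplp1, Rplp2 and Rpl12. Rplp1 was at 345, 358, 288, 258 and 341 CPM in NEO1+ libraries 1 to 5 and at 527, 632, 371, 434 and 382 CPM in NEO1- libraries 1 to 5. The lowest NEO1- value, in library 3, was above the highest NEO1+ value, in library 2. Its log2 fold change was -0.56 (SE 0.15, edgeR adjusted p 0.374, DESeq2 adjusted p 0.0331), with means of 318 ± 42.8 and 469 ± 109.5 CPM (SD, n = 5 each).

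Rplp2, whose product pairs with that of Rplp1, was at 177, 169, 139, 119 and 160.1 CPM in NEO1+ and at 272, 296, 155, 206 and 179 CPM in NEO1- libraries. NEO1- library 3 lay within the NEO1+ range and the others above it (log2 fold change -0.54, SE 0.18, edgeR adjusted p 0.550). Rplp0, the anchor of the stalk, was at 2326, 2288, 2183, 2071 and 2319 CPM in NEO1+ and at 2674, 3015, 2580.2, 2361 and 2169.7 CPM in NEO1- libraries. Only NEO1- library 5 reached into the NEO1+ range, and the log2 fold change was -0.19 (SE 0.08, edgeR adjusted p 0.667). Rpl12 ran from 208 to 236 CPM in NEO1+ and from 224 to 362 CPM in NEO1- libraries (-0.31, SE 0.12). The difference of the small stalk genes Rplp1 and Rplp2 was thus larger than that of Rplp0 and Rpl12 in the same libraries, a contrast that was not tested.

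Rpl3, Rpl4, Rpl8 and Rpl10 encode proteins that reach toward the catalytic core of the subunit, and RPL10 is among the last to be loaded, when the particle matures in the cytoplasm. Rpl10 was at 371, 389, 387, 363 and 428 CPM in NEO1+ and at 523, 598, 533, 518 and 383 CPM in NEO1- libraries. NEO1- libraries 1 to 4 lay above all NEO1+ libraries and NEO1- library 5 inside their range. The log2 fold change was -0.40 (SE 0.11, edgeR adjusted p 0.390, DESeq2 adjusted p 0.0382).

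Rpl8 was at 477, 466, 509.9, 525 and 537 CPM in NEO1+ and at 763, 752, 589, 592 and 498 CPM in NEO1- libraries (-0.34, SE 0.11). Here again NEO1- library 5 alone fell into the NEO1+ range. Rpl3 was at 1568, 1556, 1531, 1599.6 and 1704 CPM in NEO1+ and at 1893, 2037, 1703, 1738 and 1633 CPM in NEO1- libraries (-0.18, SE 0.07). Rpl4, with the 14-base run before its RefSeq start, was at 1688, 1772, 1755, 1787 and 1688 CPM in NEO1+ and at 2096, 2023, 1797, 2029 and 1603 CPM in NEO1- libraries. Its NEO1- values spread on both sides of the narrow NEO1+ range, and its fold change, -0.14 on the log2 scale with an SE of 0.07 and an edgeR adjusted p of 0.815, was among the 5 nearest to 0.

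Around the exit of the nascent chain sit the products of Rpl17, Rpl19, Rpl23a, Rpl26, Rpl31, Rpl35 and Rpl39, where the signal recognition particle and chaperones dock. Rpl23a was at 211, 242, 214, 209 and 243 CPM in NEO1+ and at 286, 381, 273, 304 and 267 CPM in NEO1- libraries. Its groups did not overlap, with a gap between NEO1+ library 5 and NEO1- library 5 (-0.43, SE 0.11, edgeR adjusted p 0.368, DESeq2 adjusted p 0.0179). Rpl35 was at 409, 403, 287, 306 and 324 CPM in NEO1+ and at 565, 569, 337, 443 and 445 CPM in NEO1- libraries (-0.45, SE 0.15). NEO1- library 3 alone fell within the NEO1+ range.

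Rpl19 ran from 501 to 554 CPM in NEO1+ and from 542 to 794 CPM in NEO1- libraries (-0.29, SE 0.09). Rpl39, a tunnel protein of very short coding sequence, was at 54.4, 38.7, 32.7, 28.4 and 39.0 CPM in NEO1+ and at 71.9, 56.2, 31.7, 42.6 and 54.6 CPM in NEO1- libraries (-0.41, SE 0.25, edgeR adjusted p 0.864). Its libraries spread more than those of the longer genes, and NEO1- library 3 lay below 4 of the 5 NEO1+ libraries. Rpl17 and Rpl31 both had a log2 fold change of -0.37, with SE of 0.13 and 0.19. All 6 tested genes of the exit ring were below 0, and Rpl26 was not measured.

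Rpl38, Rpl13a and Rpl10a encode proteins with described roles beyond bulk translation: RPL38 in translating Hox mRNAs, RPL13A in the GAIT complex that silences inflammatory mRNAs, and RPL10A in selective translation. Rpl38 was at 39.8, 23.8, 19.1, 19.2 and 22.6 CPM in NEO1+ and at 56.5, 40.8, 28.3, 32.1 and 32.4 CPM in NEO1- libraries. NEO1+ library 1 stood well above the others of its group and inside the NEO1- range, and the fold change of -0.61 on the log2 scale had the widest SE of the 43, 0.28 (edgeR adjusted p 0.750). Over the fits that left out 1 library the log2 fold change ran from -0.84, without NEO1+ library 1, to -0.43.

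Rpl13a was at 439, 428, 420.0, 376 and 431 CPM in NEO1+ and at 523, 691, 526, 537 and 448 CPM in NEO1- libraries. Its groups did not overlap, by a small gap between NEO1+ library 1 and NEO1- library 5 (-0.38, SE 0.11, edgeR adjusted p 0.401, DESeq2 adjusted p 0.0458). Rpl10a was at 141, 137, 153, 148 and 155 CPM in NEO1+ and at 147, 219.7, 184, 179 and 157 CPM in NEO1- libraries, so that NEO1- library 1 lay inside the NEO1+ range (-0.27, SE 0.12). Rpl7a and Rpl9 had the smallest p of all members. Rpl7a, with the 21-base run, was at 242, 241, 222, 273 and 237 CPM in NEO1+ and at 386, 387, 321, 315 and 274 CPM in NEO1- libraries (-0.47, SE 0.11, edgeR adjusted p 0.267, DESeq2 adjusted p 0.00608).

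Rpl9, with a run of only 4 bases, was at 569.7, 637, 614, 628 and 680.2 CPM in NEO1+ and at 728, 931, 847, 836 and 705 CPM in NEO1- libraries (-0.37, SE 0.09, edgeR adjusted p 0.267, DESeq2 adjusted p 0.00347). In Rpl7a and Rpl9 the gap between the groups was narrow, set by NEO1- library 5 on one side.

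A list of 10 members reported as mutated in Diamond-Blackfan anemia was used, which need not hold every such gene. Of these, 9 were tested and all 9 were below 0, with a median of -0.34, against -0.35 over all tested members. Of the 9, 7 were lower with an unadjusted p below 0.05, beside 34 of all 45 tested members and 3.49% of all tested genes.

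The members with the largest and smallest differences stood at the ends of a range without a gap. The 5 lowest log2 fold changes were those of Rpl38, Rpl36a (-0.60, SE 0.21), Rplp1, Rplp2 and Rpl36 (-0.49, SE 0.21), in that order. Rpl36a was at 104, 82.3, 65.7, 63.6 and 76.5 CPM in NEO1+ and at 159, 145, 70.7, 110.0 and 107 CPM in NEO1- libraries, with NEO1- library 3 inside the NEO1+ range. Rpl36 ran from 144 to 276 CPM in NEO1+ and from 208 to 400.1 CPM in NEO1- libraries.

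At the other end, Rpl27 was at 101, 107, 96.3, 100.4 and 99.7 CPM in NEO1+ and at 142, 125, 87.8, 99.4 and 91.5 CPM in NEO1- libraries. Its NEO1- libraries 1 and 2 were above all NEO1+ libraries and libraries 3 and 5 below all of them, and the log2 fold change was -0.11 (SE 0.15, edgeR adjusted p 0.991). Rpl29 ran from 286 to 313 CPM in NEO1+ and from 257 to 439 CPM in NEO1- libraries (-0.15, SE 0.12, edgeR adjusted p 0.934). Rpl7 stood at -0.17 (SE 0.08).

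Rpl26, Rpl30 and Rpl34 departed from all other members by being at or near 0. Rpl26 (chr11:68901583-68906989, plus strand, 4 exons) had 0 counts in every library, which allows up to 0.0699 to 0.144 CPM by 3 counts, depending on the library, for counting error only. Rpl30 (chr15:34440505-34443640, minus strand, 4 exons) had 5 to 16 counts a library, or 0.213 to 0.529 CPM. Rpl34 (chr3:130726831-130730398, minus strand, 5 exons) had 6 to 99 counts. These coordinates are those of GENCODE M21 on GRCm38.

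Rpl34 was the single member with a log2 fold change above 0 (1.05, SE 1.16, edgeR adjusted p 0.980). It was at 1.58, 1.74, 2.31, 0.517 and 2.70 CPM in NEO1+ and at 0.287, 0.281, 0.406, 0.973 and 2.32 CPM in NEO1- libraries. The groups overlapped through NEO1+ library 4 and NEO1- library 5. All 3 proteins are standard parts of the subunit, and the other members were at 19.1 CPM or more in every library. Of the 50-base stretches of their coding sequences, 87.4% (Rpl26), 83.3% (Rpl30) and 71.5% (Rpl34) also occur in transcripts of genes elsewhere in the annotation.

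Sharing with copies was not particular to these 3 genes. All 46 members shared at least 1 stretch of 50 bases of coding sequence with another gene, mostly processed pseudogenes. Of the members, 18 shared every such stretch, among them Rpl9, Rpl27 and Rpl38, and the median was 93.3%. The least shared of those described were Rpl8 (8.69%), Rpl4 (20.2%) and Rpl22 (30.8%). How reads with several matches were counted is not given in the sources used here, so levels of single members are uncertain by what such copies took. Over the 43 members, the shared percentage had a Spearman correlation of 0.02 with the log2 fold change.

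Of 13 pseudogene rows of the count table that share stretches with a member, 5 were at 0 in every library. They included Gm15772, Gm12191 and Rpl34-ps1, which hold copies of Rpl26, Rpl30 and Rpl34. Rpl14-ps1 had 428 to 908 counts.

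The members did not differ alike at all coding lengths. In the 14 members with a coding sequence up to 400 nucleotides the median log2 fold change was -0.45, in the 15 of over 400 and up to 600 nucleotides -0.33, and in the 14 longer ones -0.27. Over the 43 members, from 78 (Rpl41) to 1260 nucleotides (Rpl4), the Spearman correlation of log2 fold change with coding length was 0.63, a description across genes that share libraries and depth. Leaving out NEO1- library 1 gave 0.28, leaving out NEO1+ library 4 gave 0.45, and the range over all fits that left out 1 library was 0.28 to 0.74. In the 30 small subunit genes of at least 10 CPM the correlation was 0.61.

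Within the class over 600 nucleotides, Rpl7a (801 nucleotides, -0.47) was lowest. Within the middle class, Rpl27 (411 nucleotides, -0.11) and Rpl29 (483 nucleotides, -0.15) were highest. Tested genes other than ribosomal protein genes had medians of -0.17 (559 genes up to 400 nucleotides), -0.07 (878 genes up to 600), 0.02 (3890 genes up to 1300) and 0.05 (6107 longer genes). Among those with a mean log2 CPM over 7, the medians of the same classes were -0.10 (46 genes), -0.08 (93), -0.01 (351) and 0.03 (355). The protocol purified the amplified cDNA with beads that remove smaller fragments; its part in the result was not tested.

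**Figure D2:**
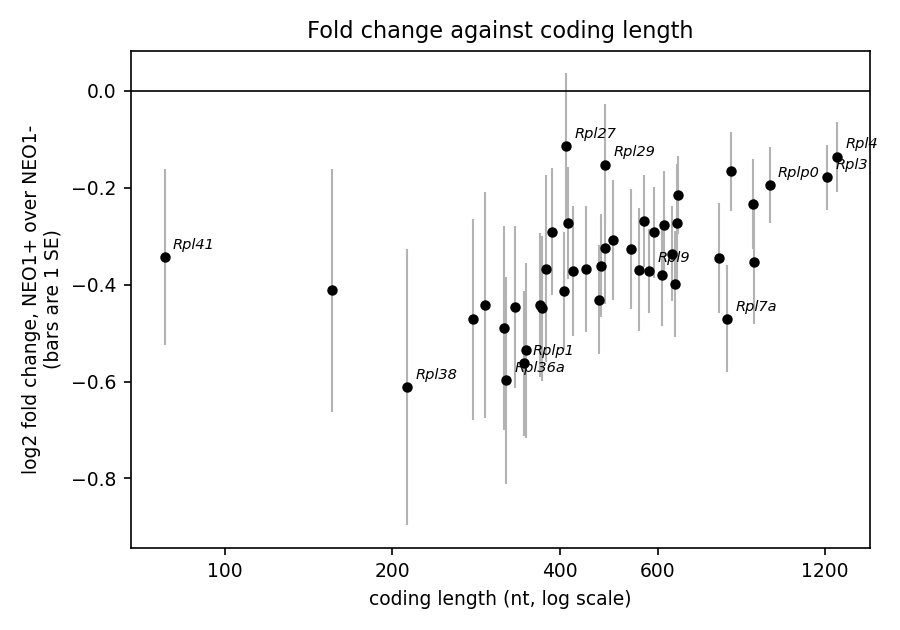
Log2 fold change (NEO1+ over NEO1-, y axis, bars of 1 SE from edgeR) against coding length in nucleotides (log scale) for the 43 members with at least 10 CPM. The 14 shortest have a median of -0.45 and the 14 longest of -0.27, with Rpl4 and Rpl3 nearest to 0 at the right and Rpl38 lowest at the left.

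The spread between libraries followed length too. The median coefficient of variation of the members up to 400 nucleotides was 19.8% (NEO1+) and 27.7% (NEO1-). For those over 600 nucleotides it was 5.15% and 14.0%. In the class up to 400 nucleotides, the median deviation from the gene mean was 0.17, -0.10, -0.40, -0.56 and -0.18 on the log2 scale in NEO1+ libraries 1 to 5. In NEO1- libraries 1 to 5 it was 0.71, 0.45, -0.19, 0.07 and 0.12. NEO1+ library 1 thus lay above NEO1- libraries 3, 4 and 5, and NEO1- library 3 below NEO1+ libraries 1, 2 and 5.

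In the class over 600 nucleotides the medians were -0.13, -0.13, -0.14, -0.13 and -0.09 in NEO1+ and 0.21, 0.38, 0.08, 0.14 and -0.13 in NEO1- libraries. The 5 NEO1+ libraries stood close together, while NEO1- library 5 was level with them. In the middle class NEO1- library 2 was highest, at 0.51.

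**Figure D3:**
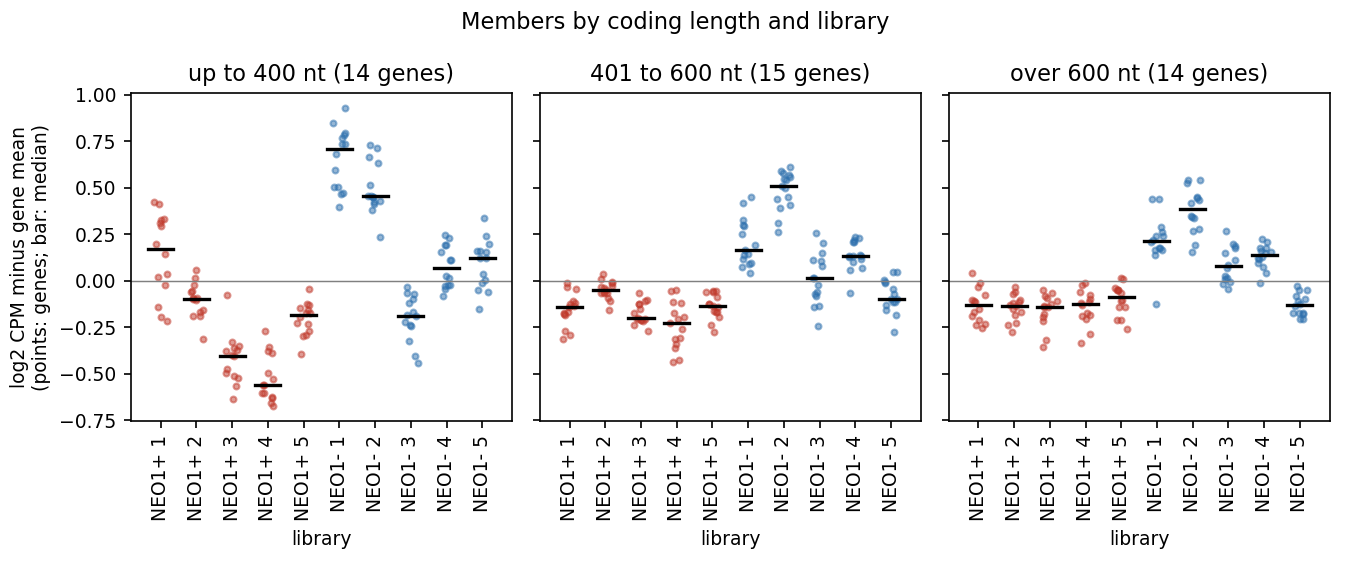
Deviation of log2 CPM from the gene's mean (y axis) in each library (x axis; red NEO1+, blue NEO1-) for 43 members in 3 classes of coding length; points are genes and bars are medians. Short members spread from -0.56 (NEO1+ library 4) to 0.71 (NEO1- library 1) by median, and long members from -0.14 to 0.38.

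The direction did not depend on 1 library: in each fit that left out 1 library, 44 of the 45 tested members were below 0, with medians from -0.40 to -0.28. Single libraries did set how far the groups overlapped. Of the 43 members, 27 were highest in NEO1- library 2 and 16 in NEO1- library 1, while 22 were lowest in NEO1+ library 4 and 9 in NEO1+ library 3. Within the NEO1- group, 24 members were lowest in library 5 and 18 in library 3. Without NEO1- library 5, 22 members did not overlap, in place of 5. Over all tested genes, 270 of 12476 were then lower without overlap, in place of 138 of 12203. Leaving out NEO1+ library 2 gave 13 such members (196 of 12435 genes) and leaving out NEO1- library 3 gave 12 (227 of 12529). Leaving out NEO1+ library 1 gave 8 (200 of 12422). With 1 library fewer, non-overlap is easier to reach for every gene. Without NEO1- library 2 the member median was -0.28, and 23 members were lower at an unadjusted p under 0.05, in place of 34. Over all tested genes, 403 of 12491 were then lower at that limit, in place of 426 of 12203.

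**Figure D4:**
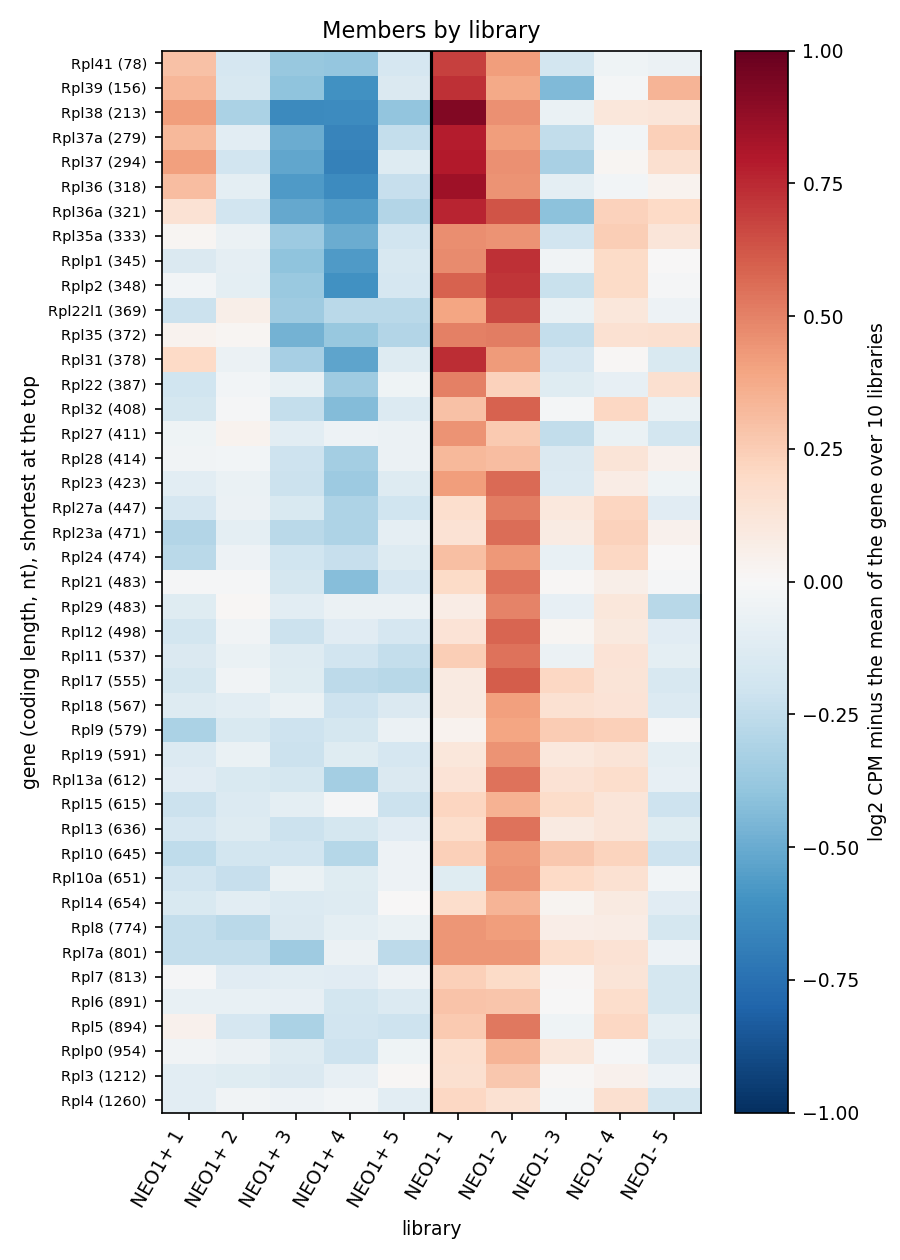
Log2 CPM minus the gene's mean over the 10 libraries (colour, red above and blue below the mean) for 43 members (rows, shortest coding sequence at the top) by library (columns). NEO1- libraries 1 and 2 are red throughout except for Rpl10a in library 1, and NEO1+ libraries 3 and 4 are mostly blue, most so in the short members at the top.

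Member counts made up 1.87, 1.95, 1.97, 1.97 and 1.99% of all counts in NEO1+ libraries 1 to 5 and 2.16, 2.35, 1.93, 2.33 and 1.91% in NEO1- libraries 1 to 5. NEO1- libraries 3 and 5 lay within the NEO1+ range and the others above it. The means were 1.95 ± 0.0479% and 2.14 ± 0.213% (SD, n = 5 each). Without counts of Rn45s, the ribosomal RNA precursor, the shares were 2.89 ± 0.116% and 3.48 ± 0.435%.

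Total counts ran from 21181669 to 38945806 a library. The Rn45s share was 32.3 ± 3.89% (NEO1+) against 38.4 ± 5.01% (NEO1-), and 13146 ± 391 against 12142 ± 680 genes were detected (SD, n = 5 each). The Rn45s share was highest, at 42.3% and 42.4%, in NEO1- libraries 1 and 2, in which the members were highest, and lowest, at 27.9%, in NEO1+ library 4. The order did not hold throughout. NEO1- library 3 had 40.5% with a median member deviation of -0.02 on the log2 scale, and NEO1- library 4 had 30.7% with 0.13. The part of these library differences in the result was not tested. Neo1, the sorting marker, was at 47.5 ± 20.5 and 10.7 ± 5.66 CPM, with 12.5 CPM in NEO1+ library 4, inside the NEO1- range.

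The 11 stem cell markers had a summed level of 2073 to 2321 CPM (NEO1+) and 1967 to 2404 CPM (NEO1-). Hoxb5, on whose reporter all cells were sorted, was at 0 counts in NEO1- library 3 and 7 counts in NEO1- library 1, and at 48 to 169 counts in the other libraries. The 9 erythroid markers summed to 27.1 to 358 CPM and 9.74 to 212 CPM, with Hba-a2, Hbb-bs and Hbb-bt at 0 in all libraries. Those of granulocytes and monocytes summed to 492 to 3082 CPM and 380.0 to 3075 CPM, and differed between libraries of a group. Mpo, one of them, had 4949, 123, 31080, 8642 and 311 counts in NEO1+ libraries 1 to 5. In NEO1- libraries 1 to 5 it had 0, 0, 46941, 18145 and 10 counts. Prtn3, another, had at least 3276 counts in every library. The markers of megakaryocytes and platelets summed to 65.0 to 124 CPM and 62.4 to 120 CPM, and of the 4 T cell markers none was tested. Genes of the cell cycle differed in the other direction: all 30 had a log2 fold change above 0 (median 1.43). Of these, 16 were higher with an unadjusted p below 0.05, against 3.11% of all tested genes. Cdk1, a kinase that starts mitosis, was at 49.8 ± 17.8 and 15.4 ± 4.64 CPM (SD, n = 5 each; log2 fold change 1.69, edgeR adjusted p 0.155). What part other cell types or cycling have in the result was not tested.

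Levels of the members were compared per kilobase of coding sequence, as the mean of both groups. Rpl38 was lowest of the 43, at 148 CPM per kilobase, followed by Rpl5 at 232. Rpl41, whose coding sequence is 78 nucleotides, was highest at 2917, and Rpl13 and Rplp0 followed at 2549.7 and 2514. Untranslated parts are not in these lengths, which raises the value of genes with a very short coding sequence.

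Of the paralogs, Rpl22 and Rpl22l1 encode interchangeable forms of protein eL22, and RPL22 is known to hold down Rpl22l1 mRNA. Rpl22 stood at 166, 187, 180.2, 148 and 184 CPM in NEO1+ and at 269.5, 223, 175, 179 and 212 CPM in NEO1- libraries (-0.29, SE 0.13, edgeR adjusted p 0.745). Rpl22l1 was at 183, 221, 166, 176 and 176 CPM in NEO1+ and at 279, 336, 202, 229 and 205 CPM in NEO1- libraries (-0.44, SE 0.15, edgeR adjusted p 0.549). Both were lower in NEO1+ with overlapping groups, and neither stood apart from the other members.

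The log2 ratio of Rpl22l1 to Rpl22 counts was 0.14, 0.24, -0.12, 0.24 and -0.07 in NEO1+ and 0.05, 0.59, 0.21, 0.35 and -0.05 in NEO1- libraries. The difference of means was -0.14, less than the spread between libraries (exact two-sided permutation p 0.341, adjusted 0.341 over 3 pairs; the smallest possible p is 0.00794).

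Rpl7l1 encodes a relative of RPL7 and did not follow the members. It was at 148, 189, 195, 197 and 188 CPM in NEO1+ and at 167, 191, 165, 199 and 157 CPM in NEO1- libraries (0.06, SE 0.12, edgeR adjusted p 0.998). The log2 ratio of Rpl7l1 to Rpl7 was -2.38, -1.93, -1.88, -1.86 and -1.99 in NEO1+ and -2.45, -2.22, -2.25, -2.09 and -2.13 in NEO1- libraries. NEO1+ libraries 2 to 5 were above all NEO1- libraries and NEO1+ library 1 below 4 of them. The difference of 0.22 did not pass (exact two-sided permutation p 0.0952, adjusted 0.286). Over the fits that left out 1 library it was 0.16 to 0.31. The exact permutation p ran from 0.00794 to 0.190, adjusted from 0.0238 to 0.524. The largest difference and the smallest p came without NEO1+ library 1. That library stood apart in these same values, and without it the groups separate fully. The smallest possible p was then bound to follow and is no separate support.

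Rpl36al, a gene nearly identical in product to Rpl36a, was at 70.5, 62.7, 60.9, 60.2 and 59.5 CPM in NEO1+ and at 78.7, 88.0, 80.7, 81.8 and 56.8 CPM in NEO1- libraries (-0.30, SE 0.16, edgeR adjusted p 0.808). The log2 ratio of Rpl36al to Rpl36a ran from -0.55 to -0.08 in NEO1+ and from -1.02 to 0.19 in NEO1- libraries, a difference of 0.28 (exact two-sided permutation p 0.262, adjusted 0.341). Rpl3l and Rpl10l, known from muscle and testis, had 0 counts in every library. Rpl39l had 39 and 23 counts in NEO1+ libraries 2 and 4, 27 in NEO1- library 4 and 0 in the others, and was not tested.

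**Figure D5:**
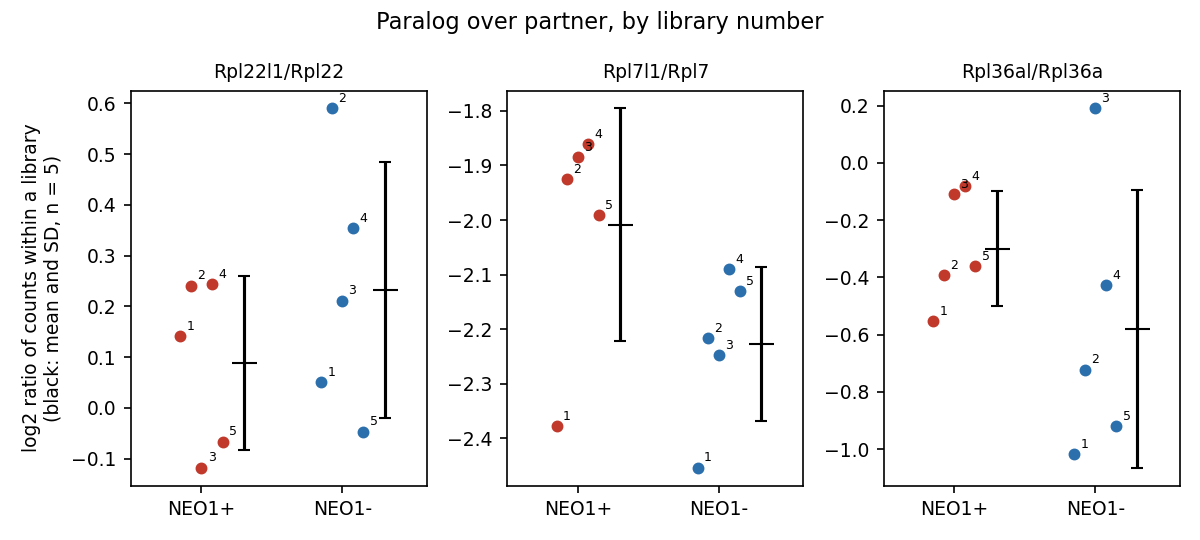
Log2 ratio of counts of a paralog over its partner within a library (y axis) for 3 pairs, by group (x axis); numbers are library numbers, and black bars show the mean and SD of 5 libraries. Rpl7l1/Rpl7 lies at -1.99 to -1.86 in NEO1+ libraries 2 to 5 and at -2.45 to -2.09 in NEO1- libraries, with NEO1+ library 1 at -2.38.

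The small subunit genes had the same direction: 31 of 31 were below 0, with a median of -0.37 and 23 at an unadjusted p under 0.05. In 10 of the 31 the groups did not overlap, and DESeq2 called 10. Over all genes these shares were 3.49% lower with an unadjusted p below 0.05, 1.13% lower without overlap and 0.408% called lower by DESeq2. Rps9, the small subunit gene with the smallest p, was at 1266 ± 69.8 and 1755 ± 244 CPM (SD, n = 5 each; -0.47, edgeR adjusted p 0.155). The large and small subunit medians of -0.35 and -0.37 were not tested against each other.

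Of 13 other mRNAs with a TOP tract, which encode translation factors and related proteins, 10 were below 0 with a median of -0.10 and 5 at an unadjusted p under 0.05. Eef1b2, an elongation factor subunit, was at -0.46 (edgeR adjusted p 0.248) and Eif4b, an initiation factor, at 0.15. Of 30 factors that assemble the large subunit, 18 were below 0 with a median of -0.11. Wdr12, part of the PeBoW assembly complex, was the one that was higher at an unadjusted p under 0.05, at 89.0 ± 21.9 and 53.3 ± 4.57 CPM (SD, n = 5 each; 0.74, SE 0.18, edgeR adjusted p 0.290) with groups that did not overlap.

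Of 30 proteins of the mitochondrial large subunit, which is encoded and built apart from the cytosolic one, 23 were below 0 with a median of -0.14. Mrpl3 was at -0.42 and Mrpl10 at 0.22. Of 9 regulators of these mRNAs 6 were below 0, with a median of -0.06. Larp1, which binds the TOP tract, was at -0.66 (SE 0.27, edgeR adjusted p 0.681), and Myc, a driver of ribosomal protein gene transcription, at -0.48 (SE 0.17, edgeR adjusted p 0.586). At the other end of this list, Rps6kb1 was at 0.15 (SE 0.23, edgeR adjusted p 0.997).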

How the data were processed

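RNA from sorted bone marrow cells was amplified by Smart-seq2 with 18 PCR cycles, and 40 ng of cDNA was made into Nextera libraries, per the labels' protocols. The authors deposited a table of counts per gene symbol and a table of log2 values, log2(count divided by a size factor, plus 1). The submitters' processing notes name the build mm10, STAR 2.4, bcl2fastq 2.18 and DESeq2 1.22.2; the counting tool and annotation are not given in the sources used here. The reads carry no molecular identifiers, so floors cover counting error only.

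The counts were tested with edgeR 4.0.16 (filterByExpr, TMM, robust quasi-likelihood F test) in R 4.3.3, fitted on the whole table of 10 libraries and adjusted by Benjamini-Hochberg over 12203 genes; a gene was called at an adjusted p under 0.05. The biological coefficient of variation was 0.717. DESeq2 1.42.0 and limma 3.58.1 (on counts and on the deposited log2 values) were alternatives, as were other scalings, no low-count filter, a block for the library number and leaving out each library. Paralog ratios used an offset of 0.5 counts. Chi-square per degree of freedom between libraries of a group was at least 86.7, so none were alike. The fits were also run on simulated counts whose spread between libraries was set lower than in these data. That run therefore does not measure error rates here, and its check of false calls left out DESeq2.

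Gene coordinates, coding lengths and shared 50-base stretches come from GENCODE M21 (GRCm38) and promoter sequences from RefSeq. Named were all members of the role lists, the 5 lowest and 5 highest log2 fold changes, members of low level or opposite sign, the 6 paralogs and, of other lists, the extremes. The members and lists were chosen with earlier results of these data known; coding length, copies and promoter letters were read after the members' values had been seen. Some marker and neighbouring genes are not reported here.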

Additional observations from a re-analysis of the deposited data

Results flagged for a closer look

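In 98 groups of 5 libraries (members, paralogs and paralog ratios in both groups), 2 held a library that stood apart: its distance to the next library, over the range of the group, was above Dixon's 95% critical value of 0.71. Chance gives about 1 in 20, or 4.9 of 98. In NEO1+ library 4, Rpl13a had a log2 CPM of 8.56, whereas the rest of the group held 8.71 to 8.78. The log2 ratio of Rpl7l1 to Rpl7 was -2.38 in NEO1+ library 1, whereas the rest of the group held -1.99 to -1.86. NEO1+ library 1 had the fewest counts of all libraries, 21181669. Whether its depth has a part in the ratio was not tested.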

How the results depend on the processing

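With total counts as the only scaling, Rpl4, Rpl27 and Rpl29 changed sign to 0.021, 0.050 and 0.010. The member median was then -0.20, 9 members were lower at an unadjusted p under 0.05, 0 did not overlap and 1 gene of the table was called. Of all 12203 tested genes, 102 were then lower at that limit and 39 lower without overlap. With upper quartile scaling 3 members did not overlap, beside 132 of 12203 tested genes that were lower without overlap. DESeq2 called 6 members and 147 genes. Of all genes, 2 were called without the low-count filter, 2 by limma-voom and 1 by limma-trend, and no member was. Without Rn45s in the total, the difference in member share was -0.60 in place of -0.19 percentage points. Leaving out 1 library gave 0 to 1 genes called, 0 members called and 23 to 38 members lower at an unadjusted p under 0.05. Of all tested genes, 337 to 486 were then lower at that limit. Of the members, 5 to 22 did not overlap, beside 180 to 270 of all tested genes that were lower without overlap. Member medians were -0.40 to -0.28 and share differences -0.24 to -0.13 points. The ratio difference of Rpl7l1 to Rpl7 was 0.16 to 0.31, that of Rpl22l1 to Rpl22 -0.21 to -0.05 and that of Rpl36al to Rpl36a 0.17 to 0.47. The causes were not tested.

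No label says what an equal library number shares. Deviations from group means correlated at 0.00 to 0.04 between equal numbers over all 12203 genes, against a mean of -0.0042 between different numbers. Of 10 libraries, 4 were then closest to their own number. Over 298 genes of mean log2 CPM over 8 the values were 0.16 to 0.50, against -0.073, and 10 of 10. Equal numbers thus lay above the mean of different numbers in both sets, by little over all genes. That is a hint from the data only, and the libraries were treated as unpaired. With the replicate block, edgeR called 0 members and 0 genes, 36 members were lower at an unadjusted p under 0.05, 44 were below 0 and the median was -0.34. Of all 12203 tested genes, 350 were then lower at that limit and 5005 were below 0. The exact sign-flip test with the block gave 0.0625, the smallest p 5 pairs allow, for Rpl7l1 to Rpl7, adjusted 0.188.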
